A study of Mus musculus with 6 samples.

Results

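The histone genes of the mouse were examined in a set of accessible chromatin intervals, and 76 of 49943 genes in the RefSeq gene table of GRCm38.p6 met the rule. A gene was taken when its symbol began with H1f, H2ac, H2bc, H3c or H4c and a number (70 genes), or when an older symbol began with Hist1h to Hist4h (6 more, including the chromosome 11 genes H2bu2 and H2aw). There were 71 protein-coding members and 5 pseudogenes. Of the 323483 intervals of the experiment, 77 overlapped a member gene extended by 2 kb on either side. Not all members are replication-dependent in the usual sense. H1f0 and H1f10 are linker histones made outside S phase, H1f6 and H1f7 are linker histones of male germ cells, H1f8 is that of the oocyte, and H2ac1 and H2bc1 encode testis forms of H2A and H2B.

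The intervals came from ATAC-seq, in which a transposase cuts and tags accessible DNA, of mouse embryonic fibroblasts with an M2-rtTA transactivator and a TetO-Myf6 transgene, heterozygous for both. Such cells make Myf6, a muscle regulatory transcription factor, when doxycycline is present. All libraries were made after 24 h in medium with 10 ng/mL bFGF, with 2 libraries in each of 3 groups. The Myf6 with F/R/C group received 2 µg/mL doxycycline with 5 µM forskolin, 5 µM RepSox and 3 µM CHIR99021, the Myf6 group received 2 µg/mL doxycycline, and the medium group received neither. Only a joined interval set was analysed here, without a value for any library or group, so the 3 groups are not compared, the depth behind an interval is unknown and no count below has a replicate error. An interval shows that a peak was called in the experiment, and a place with none in the table used here is described as such and not as closed. Of the 10 fibroblast marker genes, all 10 had an interval within 2 kb of the gene, as had 7 of 7 skeletal muscle genes and 3 of 5 macrophage and blood genes, with none at Adgre1 and Tyrobp. So had 4 of 4 endothelial genes and 3 of 4 epithelial genes, with none at Krt5, against 81.7% of all protein-coding genes other than the histone genes. An interval over the promoter window, from 250 bases before to 50 after the start, was present at 6 of 6 fibroblast, 2 of 5 muscle, 1 of 2 endothelial, 1 of 3 epithelial and 0 of 1 macrophage and blood genes with a window, against 67% of such other genes.

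Replication-dependent histone genes are short, mostly lack introns and exist in many copies, so that a cell can make histone protein in bulk while DNA is copied. Their messages end in a stem-loop in place of a poly(A) tail. The genes lie in clusters where H2A and H2B genes often sit head to head and share a promoter, and the coactivator NPAT gathers at them in the histone locus body. Cultured fibroblasts that divide draw on them in each S phase.

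The promoter windows on which the comparisons turn are shown first, from 250 bases before to 50 bases after the RefSeq start site (GRCm38.p6), read along transcription. H2bc12 (chr13:22035571-22035870, plus strand) stands for the head-to-head pairs with an interval, H2bc15 (chr13:21753826-21754125, plus strand) for pairs without, and H2bc1 (chr13:23934107-23934406, minus strand) for the testis pair. Capitals mark matches on either strand to the TATA motif TATAAA and to CCAAT. They also mark the octamer known from H2B promoters, ATTTGCAT. The H1 box AAACACA and the motif GGTCC, part of an element of H4 promoters, are marked likewise.
H2bc12: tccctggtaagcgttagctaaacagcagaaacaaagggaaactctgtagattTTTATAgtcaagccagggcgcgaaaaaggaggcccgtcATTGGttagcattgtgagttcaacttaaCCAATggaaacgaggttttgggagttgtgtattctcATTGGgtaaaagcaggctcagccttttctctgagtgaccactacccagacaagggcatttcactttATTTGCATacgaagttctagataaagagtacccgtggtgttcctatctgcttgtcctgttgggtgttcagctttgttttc
H2bc15: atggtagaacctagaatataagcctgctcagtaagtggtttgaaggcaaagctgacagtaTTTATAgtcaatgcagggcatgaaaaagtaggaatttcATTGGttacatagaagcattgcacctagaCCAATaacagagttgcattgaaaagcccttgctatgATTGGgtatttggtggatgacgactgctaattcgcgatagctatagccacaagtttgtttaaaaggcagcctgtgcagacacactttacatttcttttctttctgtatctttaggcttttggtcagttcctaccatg
H2bc1: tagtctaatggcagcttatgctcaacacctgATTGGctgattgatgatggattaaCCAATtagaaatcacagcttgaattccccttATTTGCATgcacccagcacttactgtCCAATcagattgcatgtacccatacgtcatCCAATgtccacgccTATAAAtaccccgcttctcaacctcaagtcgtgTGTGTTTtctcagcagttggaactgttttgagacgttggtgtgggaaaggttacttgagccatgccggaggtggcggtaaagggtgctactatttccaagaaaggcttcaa
H1f2 (chr13:23738557-23738856, plus strand) had an interval over this window and H1f4 (chr13:23622509-23622808, minus strand) had none, although both windows hold an AAACACA and a CCAAT. H4c9 (chr13:22041313-22041612, minus strand) shows the GGTCC near the start of H4 genes.
H1f2: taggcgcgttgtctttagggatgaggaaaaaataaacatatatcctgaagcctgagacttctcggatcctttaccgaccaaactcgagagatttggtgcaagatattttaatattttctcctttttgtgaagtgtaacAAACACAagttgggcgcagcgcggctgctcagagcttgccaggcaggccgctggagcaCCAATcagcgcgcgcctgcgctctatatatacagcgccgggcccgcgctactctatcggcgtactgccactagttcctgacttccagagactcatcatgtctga
H1f4: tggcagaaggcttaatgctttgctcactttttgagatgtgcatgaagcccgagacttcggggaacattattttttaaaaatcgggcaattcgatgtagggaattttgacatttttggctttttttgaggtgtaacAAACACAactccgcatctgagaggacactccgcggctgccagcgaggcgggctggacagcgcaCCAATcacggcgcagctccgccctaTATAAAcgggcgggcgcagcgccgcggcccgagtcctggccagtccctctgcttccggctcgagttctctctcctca
H4c9: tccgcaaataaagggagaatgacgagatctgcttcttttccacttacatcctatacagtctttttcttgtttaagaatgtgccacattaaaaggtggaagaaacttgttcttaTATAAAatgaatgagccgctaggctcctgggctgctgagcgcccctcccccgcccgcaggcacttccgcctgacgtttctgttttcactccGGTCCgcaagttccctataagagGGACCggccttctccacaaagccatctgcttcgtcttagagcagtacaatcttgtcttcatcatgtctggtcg
H2ac18 (chr3:96245247-96245546, plus strand) lies in the chromosome 3 cluster, where no interval was listed, and H2aw (chr11:58954435-58954734, plus strand) in the chromosome 11 cluster, where each gene had one.
H2ac18: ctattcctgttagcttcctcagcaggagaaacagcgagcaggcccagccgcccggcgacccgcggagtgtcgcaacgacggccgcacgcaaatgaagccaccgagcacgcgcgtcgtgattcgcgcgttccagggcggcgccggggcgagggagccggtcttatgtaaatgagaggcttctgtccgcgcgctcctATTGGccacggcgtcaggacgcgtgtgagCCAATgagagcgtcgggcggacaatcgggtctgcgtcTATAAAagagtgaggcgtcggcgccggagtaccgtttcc
H2aw: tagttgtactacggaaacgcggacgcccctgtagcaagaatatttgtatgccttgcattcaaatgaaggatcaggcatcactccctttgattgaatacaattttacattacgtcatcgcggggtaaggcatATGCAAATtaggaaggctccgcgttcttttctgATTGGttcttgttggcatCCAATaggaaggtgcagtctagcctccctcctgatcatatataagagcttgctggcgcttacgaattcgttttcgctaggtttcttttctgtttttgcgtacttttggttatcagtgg

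An interval was present within 2 kb of 55 of the 76 histone genes, against 81.7% of the 21816 other protein-coding genes. The promoter window could be read for 66 members, and 40 of these (60.6%) had an interval over it, against 67% of 17426 other genes with a window. No window was used for H2bc21, H4c14, H3c7, H2bc4, H3c1 and the 5 pseudogenes. The histone share was near that of all genes. Of other protein-coding genes up to 1 kb long, 67 of 1295 (5.17%) had such an interval. Genes with a symbol that begins with Rpl or Rps and a number had one at 67 of 75 windows (89.3%). These are mainly ribosomal protein genes, which are also needed in bulk, but the symbol rule can take others. Hox genes had one at 19 of 22 windows (86.4%) and keratin genes at 5 of 36 (13.9%). Where several intervals met a window the widest was taken. At histone genes this interval had a median width of 1034 bp and ranged between 344 and 2077 bp, against a median of 1295 bp (quartiles 986 and 1644 bp) at other protein-coding genes. Width is the extent of joined peaks and not a signal level.

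**Figure D1:**
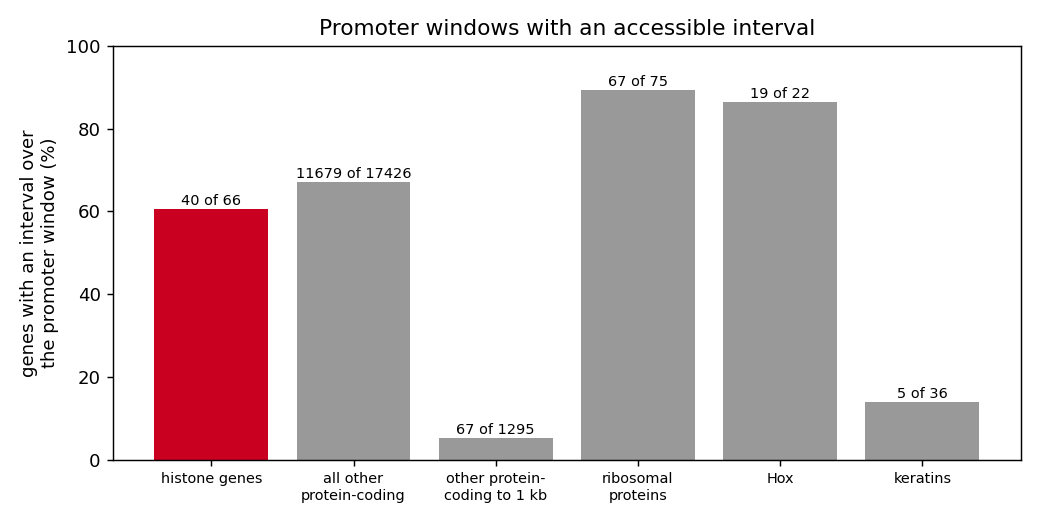
Share of genes, in percent, with an accessible interval over the promoter window (vertical axis) for the histone genes and 5 comparison sets (horizontal axis), with the counts above each bar. The histone bar (40 of 66) stands near that of all other protein-coding genes (11679 of 17426) and far above that of other genes up to 1 kb long (67 of 1295). The ribosomal protein set was taken by the start of the symbol and can hold other genes.

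The windows without an interval lay mostly side by side. On chromosome 11, all 3 members had an interval. On chromosome 13, 46 of 56 members had an interval within 2 kb, and 35 of 51 windows (68.6%) carried one. On chromosome 3, none of the 10 members had an interval within 2 kb, none of the 8 windows carried one, and the span from 96219885 to 96270192 (50.3 kb) held no interval at all. Over members outside these clusters, 3 of 5 windows carried an interval. These shares describe a single interval set, and the members of a cluster share their surroundings, so the clusters were not tested against each other.

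Within chromosome 13 the members fell into 4 blocks that lie over 100 kb apart. The largest, from 23531044 to 23764412 (233.4 kb), held 30 members, and all 30 had an interval within 2 kb. Of its 26 windows 24 carried an interval, and 15.2% of its sequence lay in 60 intervals. The block from 22035122 to 22043658 (8.54 kb) held 5 members, all 5 with an interval over the window, and 38.2% of it was covered. The lowest block, from 21715711 to 21837530 (121.8 kb), held 19 members, of which 6 of 18 windows carried an interval, and 6.52% of it was covered. The last block was the testis pair H2bc1 and H2ac1 (23933725 to 23934913), with no interval in its 1.19 kb.

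**Figure D2:**
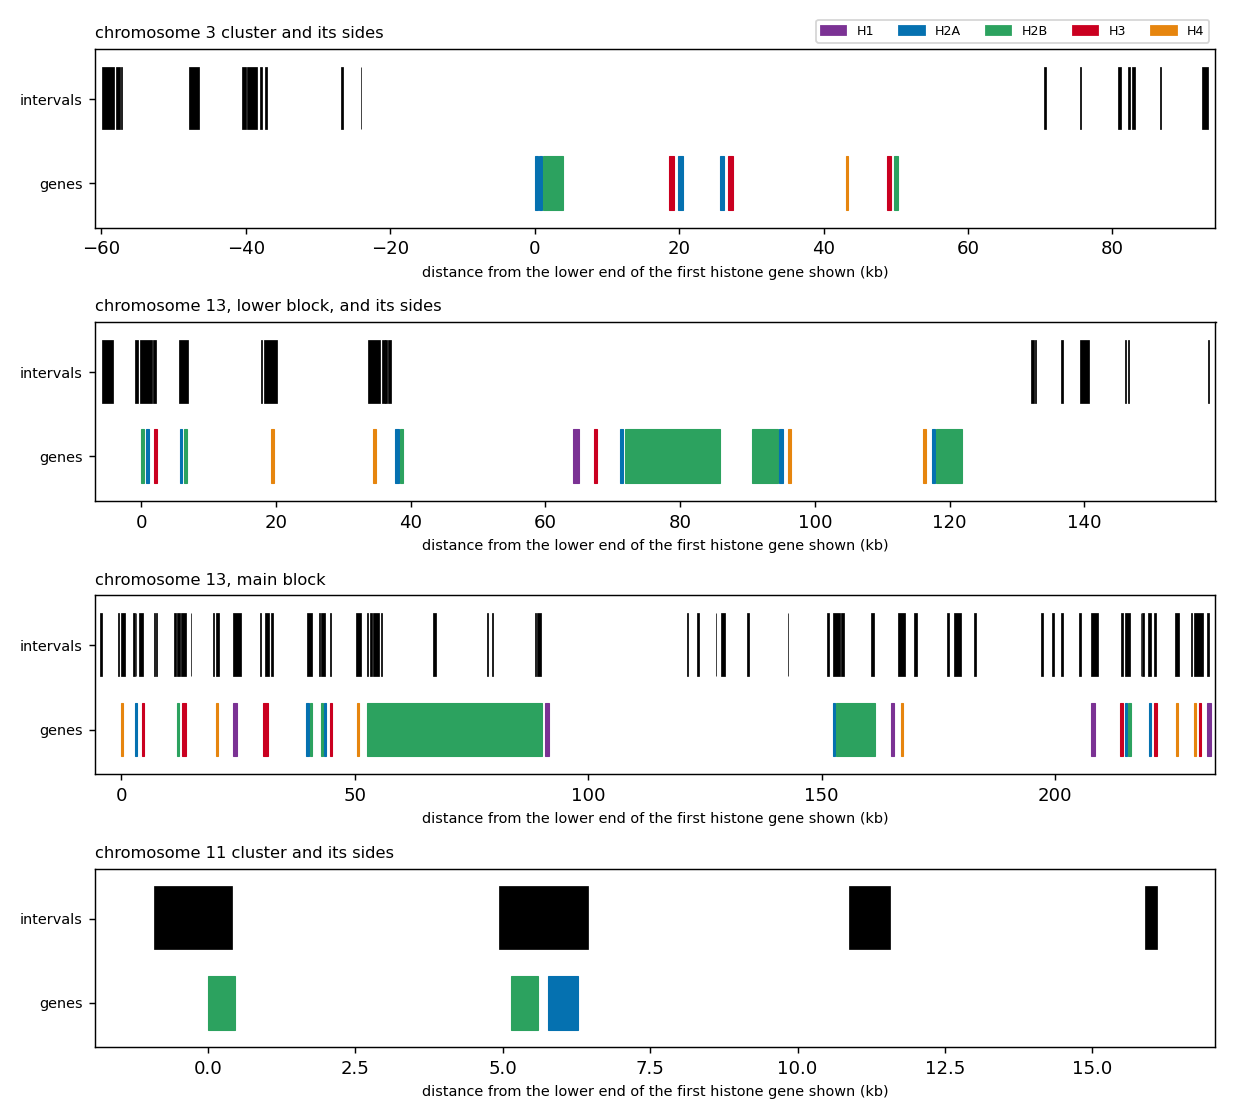
Maps of the chromosome 3 cluster, the lowest and the largest chromosome 13 blocks and the chromosome 11 cluster, with intervals (black) above the histone genes (coloured by class), against distance in kb from the lower end of the first histone gene shown; the largest block is titled main block. Intervals are absent over all 10 genes of chromosome 3 and over the upper 12 genes of the lowest chromosome 13 block, and lie among the genes of the other panels.

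A pair of long stretches without intervals held 20 of the 26 windows with none. The stretch on chromosome 3 ran from 96195882 to 96290450 (94.6 kb) and held all 10 members there and the non-histone gene Bola1. The stretch on chromosome 13 ran from 21752737 to 21847736 (95.0 kb) and held 12 members and no other protein-coding gene: H2ac15, H2bc15, H1f5, H3c11, H2ac22, H2bc22, H2bc23, H2ac23, H4c17, H4c18, H2ac24 and H4bc24 (older symbol Hist1h2br, an H2B gene). Long gaps were rare, since 2093 of 323450 spaces between neighbouring intervals (0.647%) were as long as the one on chromosome 3. Of the 156 spaces between that length and 100 kb, the median held 0 whole protein-coding genes, and these 2, with 11 and 12, were the ones that held at least 11. Genes in longer spaces were not counted, and these 2 were picked because they hold members. The start site farthest from an interval was that of H2ac18, at 44954 bp, and on chromosome 13 that of H2bc23, at 37538 bp.

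Genes at the sides of the stretches differed. Below the chromosome 3 stretch, Sv2a, which encodes a synaptic vesicle protein, had an interval of 1423 bp over its window. Bola1, inside the stretch, had none, and its start lay 1705 bp from the nearest interval. Fcgr1, an immunoglobulin receptor gene of myeloid cells across the other edge, also had none over its window. On chromosome 13, H4c12 lies next to the stretch and had an interval of 1696 bp over its start, and the next pair, H2ac15 and H2bc15, had starts 1176 and 1340 bp from the nearest interval. Outside the stretches, 53 of 54 members had an interval within 2 kb and 40 of 46 windows carried one. The stretches are defined by their lack of intervals, so these counts describe where the missing ones lie and are no comparison.

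Near-identical sequence elsewhere moved with this pattern in part. For each window, the share of its 50-base words that also occur in a promoter window at another place was counted over the 27025 genes of the promoter table. In the stretches, 10 of 20 windows had between 67.7% and 100% of such words in common with another window. H2bc23 and H4bc24 were the extreme, with identical windows (100%), and H4c17 and H4c18 shared 94.0%. On chromosome 3, H3c14 and H3c15 had 74.1% each and H2ac18 and H2ac19 had 67.7% each. The other 10 windows in the stretches, among them H2ac15, H2bc15, H1f5, H3c11, H3c13 and H2bc18, had none. Outside the stretches 44 of 46 windows had none, and H4c11 and H4c12, both with an interval, had 11.6%. No source used here says how the authors treated reads that match several places, and the part of repeated sequence in the missing intervals was not tested.

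**Figure D3:**
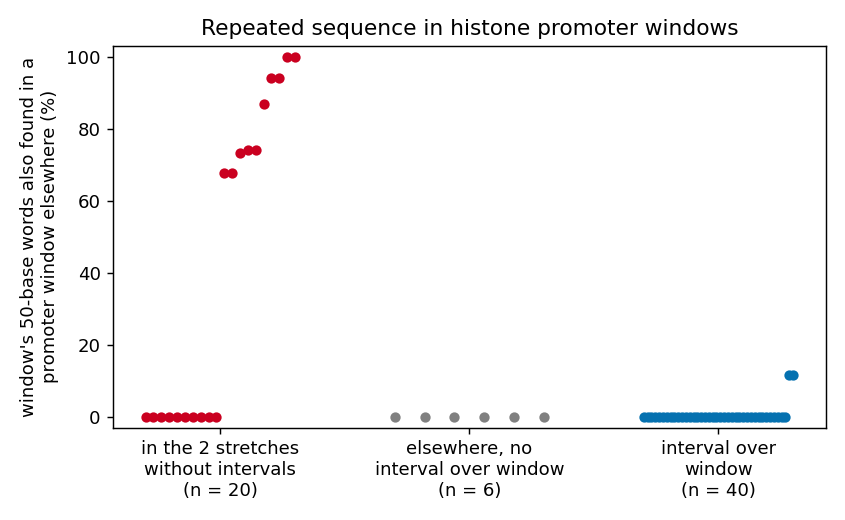
Share of the 50-base words of each histone promoter window that occur in a promoter window elsewhere, in percent (vertical axis), for windows in the stretches without intervals, other windows without an interval, and windows with an interval (points are genes). High shares occur at 10 of 20 windows of the stretches, and no window with an interval exceeds 11.6%.

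Outside the stretches, the windows without an interval belonged to 6 genes. Of these, 5 were germline histones: H1f6, H1f7, H1f8, H2ac1 and H2bc1. The nearest interval lay 1664 bp from the start of H1f6, 8239 bp from that of H1f7, 325 bp from that of H1f8, 1185 bp from that of H2ac1 and 1466 bp from that of H2bc1. The H1f8 interval, 1115 bp wide, lay before the start and ended short of the window. H3f4, a testis H3 gene next to the chromosome 11 cluster and not a member, also had none, with the nearest interval 1232 bp from its start. With H3f4, none of the 6 listed germline histone genes with a window carried an interval over it, against 67% of other protein-coding genes with one. The windows of H2ac1 and H2bc1 overlap, so these genes are not separate cases. The remaining gene of the 6 members outside the stretches was H1f4, one of the somatic linker histones. Its nearest interval began 1642 bp past its start, beyond the end of the gene.

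The linker histone genes H1f3, H1f2 and H1f1, whose products bind DNA between nucleosomes, had intervals of 1699, 1545 and 608 bp over the start. The intervals of H1f3 and H1f2 reached only 109 and 119 bp before the start but 1589 and 1425 bp past it, so that both genes were covered throughout. That of H1f1 ended 458 bp past the start and covered 61.6% of the gene. In all, 5 of 10 H1 windows carried an interval, the same share (50%) as in H2A (9 of 18) and the lowest of the 5 classes. The share was 67% over other protein-coding genes. Class shares partly reflect which genes lie in the stretches or are germline histones. Without those genes, a set trimmed by lack of intervals, 40 of 41 windows over all classes carried one. The replacement genes H1f10 on chromosome 6 and H1f0 on chromosome 15 had intervals of 2077 and 740 bp, and that of H1f10 was the widest over any member's window. The pseudogene H1f11-ps on chromosome 19 had an interval of 1725 bp that lay 979 bp from it.

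H2A and H2B genes, whose products pair as a dimer on the nucleosome, had intervals over 9 of 18 and 10 of 16 windows. Other protein-coding genes had one at 67% of windows. The widest on chromosome 13 were those of H2ac13 and H2bc13 (1788 bp, shared), H2ac6 (1404 bp), H2ac12 and H2bc12 (1398 bp, shared) and H2bc14 (1324 bp). H2bc6, with a second RefSeq start, had an interval of 1188 bp at 1 of its 2 windows. Intervals at H2A windows extended a median of 758 bp before and 455 bp past the start, and those at H2B windows 579.5 bp before and 554.5 bp past it. On chromosome 11, H2bu2 had an interval from 915 bp before to 406 bp past its start. The H2A pseudogene H2af-ps2, on chromosome 13 outside the cluster, had intervals of 725 and 385 bp within 2 kb. A single interval of 1514 bp on chromosome 11 covered the whole of H2aw and of the pseudogene H2bu1-ps next to it. The same interval also held the lower end of the non-histone gene Trim17.

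Among members with a promoter window, all 10 head-to-head pairs with start sites at most 1 kb apart joined an H2A to an H2B gene. These pairs all lay on chromosome 13, at 164 to 281 bp. Members without a window could not enter a pair, so further pairs may exist. A single interval lay over both start sites in 5 of the 10 pairs, and in 5 of the 6 outside the chromosome 13 stretch. Among other protein-coding genes with a window it did so in 92.1% of 736 head-to-head pairs. Those pairs were taken at any distance up to 1 kb, and genes without a window could lie between their starts, so the 2 sets are not fully alike. The 5 were H2bc7 with H2ac7 (174 bp apart, interval of 733 bp), H2ac12 with H2bc12 (178 bp, 1398 bp), H2ac8 with H2bc8 (180 bp, 1076 bp), H2bc13 with H2ac13 (229 bp, 1788 bp) and H2ac11 with H2bc11 (249 bp, 993 bp). Where a pair had any interval over a start, the same interval held both starts. The interval ran farther past the H2B start in 3 pairs: 543 against 200 bp at H2bc11 and H2ac11, 578 against 317 bp at H2bc8 and H2ac8, and 316 against 242 bp at H2bc7 and H2ac7. It ran farther past the H2A start in the other 2. Some of these distances pass the end of the gene, as at H2bc11 and H2bc8. Of the 5 pairs without, 4 lay in the chromosome 13 stretch and the last was the testis pair, whose starts are the farthest apart (281 bp). The distances of pairs with and without an interval overlapped: the closest pair, H2ac15 with H2bc15 at 164 bp, had no interval and the pair with H2ac11 at 249 bp had one.

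Further neighbours, not counted among these pairs, shared an interval where one of them had no promoter window. An interval of 1404 bp met the bodies of H2ac6 and H2bc4, one of 2072 bp those of H4c1 and H3c1, one of 1324 bp those of H2bc14 and the pseudogene H2ac14, and one of 1120 bp those of H2bc3 and the pseudogene H2ac5-ps. In all, 10 intervals met the bodies of 2 members each.

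**Figure D4:**
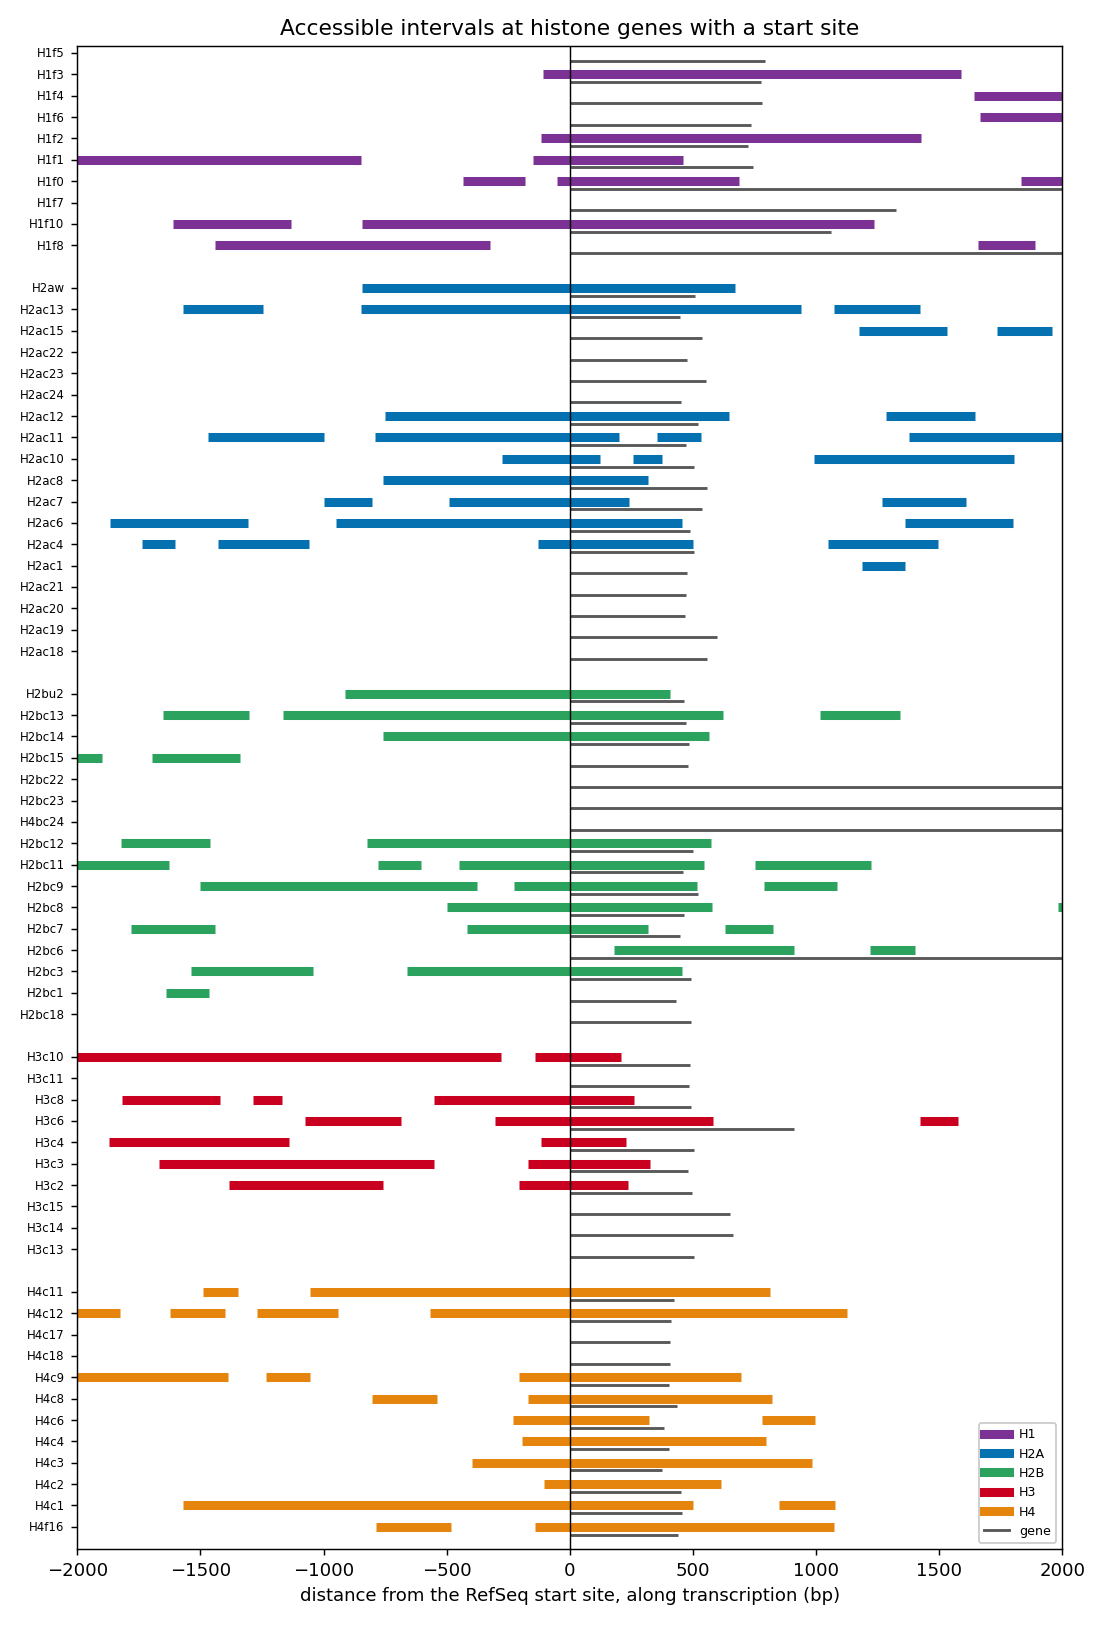
Intervals (thick bars, coloured by class) within 2000 bp of the first RefSeq start site of each histone gene with a promoter window, against distance along transcription in bp, with the gene drawn as a thin grey line. Bars over the start end a median of 249.5 bp past it at H3 genes, inside the gene, and 805.5 bp past it at H4 genes, where 9 of 10 run beyond the gene end. The interval at the other start of H2bc6 lies outside the plot.

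H3 genes carried the narrowest intervals. Their 6 intervals had a median width of 471.5 bp, with H3c6 (885 bp), H3c8 (814 bp) and H3c3 (497 bp) the widest and H3c4 (344 bp) the narrowest of all members. They ended 206 bp past the start at H3c10, 227 bp at H3c4, 238 bp at H3c2, 261 bp at H3c8, 327 bp at H3c3 and 581 bp at H3c6. Each therefore stopped inside its gene, and intervals covered between 42.4% and 68.3% of these gene bodies. Of the H3 genes without a window, H3c1 was covered throughout by an interval of 2072 bp, shared with H4c1. H3c7 was covered over 98.9% of its length by an interval of 1125 bp. Narrow intervals and partial cover were therefore not shared by all H3 genes.

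H4 genes all encode a core histone and are by median length (406 bp) the shortest of the 5 classes. Of their 12 windows 10 carried an interval, the highest share of the 5 classes (83.3%), against 67% of other protein-coding genes. The 2 without were H4c17 and H4c18 in the stretch, and the ranking of classes partly reflects which genes lie there. H4c1 (2072 bp), H4c11 (1871 bp) and H4c12 (1696 bp) had the widest. The H4 intervals ended a median of 805.5 bp past the start, beyond the gene, against 249.5 bp for H3 and 1233 bp for H1. Of the 10 genes, 9 were covered throughout, and H4c6 was covered over 84.3%. H4f16 on chromosome 6, the single H4 gene outside the clusters, had an interval of 1215 bp that covered it throughout.

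The members are short (median 494.5 bp), and intervals often held whole genes. Over all 76 members, 24 gene bodies were covered throughout, against 0.151% of other protein-coding genes and 19 of 1516 (1.25%) of those up to 1 kb long. Most of those short genes had no interval to cover them: 218 of 1516 had one within 2 kb, against 55 of the 76 members. Cover among short genes with an interval was not compared. The median covered share was 50.7% over all members, against 8.71% over other protein-coding genes. Over the 54 members outside the stretches it was 96.2%, a set trimmed by lack of intervals and not comparable with all other genes. Sequence shared between the coding parts of histone genes was not computed, and its part in the interval edges inside genes was not tested.

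**Figure D5:**
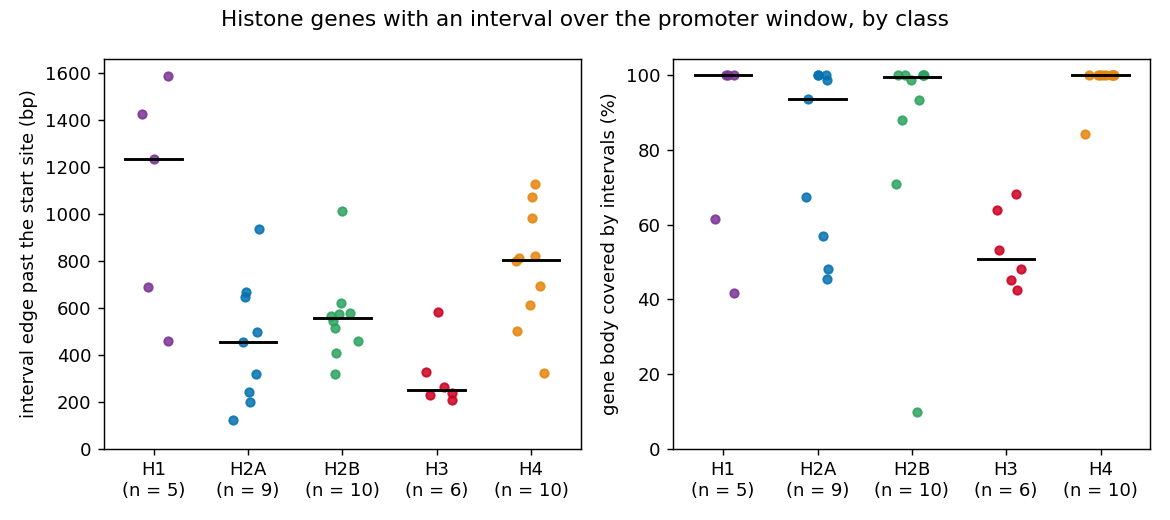
For the 40 histone genes with an interval over the promoter window, the distance in bp from the start site to the interval's downstream edge (left) and the share of the gene body covered, in percent (right), by class; points are genes and bars are medians. H3 genes lie low in both panels (medians 249.5 bp and 50.7%), and 9 of 10 H4 genes are covered throughout.

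The windows were also searched for short motifs on both strands, without a test and with no meaning for binding. CCAAT was found in every H2A (18), H2B (16) and H3 (10) window, in 7 of 10 H1 and in 3 of 12 H4 windows, against 41.1% of all genes in the promoter table. The octamer ATTTGCAT occurred in 7 of 18 H2A and 7 of 16 H2B windows and in none of the other classes, against 1.97% of all genes. Windows of head-to-head genes overlap, so both genes of a pair can count the same match. AAACACA occurred in 5 of 10 H1 windows (8.22% of all genes), those of H1f2, H1f3, H1f4, H1f5 and H1f6. In these 5 it lay on the transcribed strand and began 112 to 122 bases before the start. GGTCC was found in 11 of 12 H4 windows (48.7% of all genes), and in 10 of these it began 18 to 47 bases before the start on the transcribed strand. TATAAA was found in 35 of 66 members (53.0%) against 15.7% of all genes. It lay on the transcribed strand in 30 members, and in 12 of these it began 20 to 40 bases before the start.

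The motifs were also counted by presence of an interval. TATAAA was in 21 of 40 windows with and 14 of 26 without an interval, and CCAAT in 31 of 40 and 23 of 26. The E-box CANNTG, the kind of site bound by Myf6, was in 24 of 40 windows with and 21 of 26 without an interval, and in 68.2% of all histone windows against 75% of all genes. Matches of different motifs overlapped in few windows, most often CCAAT with CANNTG, in 5 windows. GC content had a median of 44.2% (33.3 to 77.7%) in windows with an interval and 47.3% (39.3 to 72.7%) in those without, against 56.3% over all protein-coding genes. The 8 chromosome 3 windows lay in 2 ranges. H3c13, H2ac21, H2ac20 and H2bc18 had 42 to 48% GC, and H2ac19, H2ac18, H3c14 and H3c15, the windows with repeated words, had 63.7 to 72.7%.

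Genes that serve histone genes were looked at from a fixed list. All 17 factors of histone transcription and 3′ end formation had an interval within 2 kb, and all 15 with a window had one over it, of 664 to 2676 bp, against 81.7% and 67% of other protein-coding genes. Npat, the coactivator of the histone locus body, had 1848 bp, Casp8ap2, which encodes its partner FLASH, 1060 bp, and Slbp, which encodes the stem-loop binding protein, 1409 bp. The U7 snRNP genes Lsm10 and Lsm11 had 664 and 1451 bp, and Pou2f1, which encodes the octamer-binding factor Oct-1, 2676 bp. Of 12 genes listed as replacement or dispersed histones, including the members H1f0, H1f10 and H4f16, all 11 with a window had an interval over it (740 to 2413 bp), such as H2az1 (1330 bp), H3f3a (1665 bp) and H3f3b (1016 bp). The exception was H2ax, without a window, which encodes the H2A form phosphorylated at DNA breaks. H2ax lay 28877 bp from the nearest interval.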

How the data were processed

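ATAC-seq libraries (6, in 3 groups of 2) were made with 12 amplification cycles, per the labels' protocols. BWA and MACS2 are listed in the submitters' processing notes without version or role. Per the file headers, the authors annotated a deposited consensus set with HOMER's annotatePeaks, GRCm38.p6 and GENCODE vM23. No source used here says how peaks were called, filtered and joined. Of the deposited table only the 1-based start and end of each interval were used, since its peak score is 0 throughout and it has no column of a library or group. Depth is therefore unknown.

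Genes and promoter windows came from RefSeq tables of the same build. Intervals overlapping by at least 1 bp were counted, with the 2 kb extension of the gene body. Promoter windows on chromosome 18 were not used here. Described were members on chromosomes 3, 6 and 11 and outside the clusters, and on chromosome 13 members without an interval over the window, the 3 widest per class and the head-to-head pairs. H2bc6, H3c1, H3c2, H3c4, H3c7, H3c10, H4c6, H4c9 and members that share an interval were named after their values were seen. The members, lists and shown windows were chosen with earlier results of these data known, and the stretches, repeated words, blocks and motif positions after the values were seen. No test was run. Overlap counting was tested on simulated data. Python 3.11.15, numpy 2.4.6, pandas 2.3.3 and matplotlib 3.10.9 were used. A result on the surroundings of H2ax is not reported here.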

Additional observations from a re-analysis of the deposited data

How the results depend on the processing

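Of 45 recomputed values, 36 stayed within the limits set for them and 9 moved. Without an extension of the gene bodies 51 intervals overlapped members, against 77 with 2 kb. The median covered share of the gene body, 50.72% as reported, was 46.8% with intervals of at least 300 bp, 48.1% with current symbols only and 48.19% with protein-coding members only. With settings chosen after seeing the data, it was 96.22% without the members in the stretches that hold no interval, a set trimmed by that absence, and 56.99% without members outside the 3 clusters. The median width at the promoter window, 1034 bp as reported, was 993 bp with current symbols only and likewise 993 bp without members outside the clusters, and 1120 bp within 1 kb of the start site. The counts of windows with an interval, in all and in each cluster, and the count of 5 pairs stayed close to the reported ones in each setting run, and that of chromosome 3 was 0 throughout. Several settings could not change these counts. No pseudogene had a window, and leaving out the stretches only lowered the number of windows, from 66 to 46. At each window with an interval the widest had at least 344 bp, above the 300 bp minimum. All pairs lay within 281 bp, below the limit of 500 bp. No paired analysis was possible because the table has no value for any library, and no library could be left out for the same reason. Without depth per library, a missing interval cannot be told apart from low or discarded signal.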
